A study of Mus musculus with 44 samples.

Results

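The comparison described here is the liver response of Ripk3 knockout mice to a high-fat diet deficient in choline (CD-HFD). It sets 4 livers of Ripk3-/- mice fed CD-HFD (replicates 1, 2, 3 and 5) against 6 livers of Ripk3-/- mice fed normal chow as the control diet, so 10 of the 44 libraries of the series. Libraries were assigned by the genotype and diet in their labels. The mice entered the diets at 2 months of age and stayed on them for 6 months, and RNA was then taken from a piece of liver. The other groups were wild type (WT) and Mlkl-/- mice on the same control diet, on CD-HFD or on a low-fat diet deficient in choline (CD-LFD). WT livers (6 on CD-HFD, 6 on control diet) and Ripk3-/- livers on CD-LFD (3) are used below only to place the response. The labels make every mouse in the main comparison a Ripk3 knockout, controls included. Choline and fat differed together between the 2 diets. The labels do not say that the chow was matched to the choline-deficient diets in other nutrients. Nothing in the labels says whether the livers of a group came from separate litters or cages, so p-values measure the spread between these samples.

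RIPK3 is a kinase that phosphorylates MLKL, which then breaks the plasma membrane in necroptosis, a lytic and inflammatory form of cell death. Choline is needed to make phosphatidylcholine, the phospholipid with which hepatocytes coat and export very-low-density lipoprotein. Livers of mice without choline therefore store fat, and over months they develop inflammation, scarring and tumours. The comparison asks what the diet does to the liver transcriptome when the kinase that starts necroptosis is missing.

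Total counts ranged from 4957345 to 8889872 in the control livers and from 4854689 to 9915047 in the CD-HFD livers. Levels are given in CPM, reads of a gene relative to the TMM-scaled size of its library, and a gene was called when edgeR's quasi-likelihood test gave a Benjamini-Hochberg adjusted p under 0.05. Ripk3 itself had 13 reads over the 6 control livers, 9 of them in control 5, and 2 over the 4 CD-HFD livers, against means of 2.01 CPM in WT control and 3.08 CPM in WT CD-HFD livers. The library labelled control 5 was at 1.26 CPM, inside the WT control range of 0.511 to 4.89 CPM, and the other 9 libraries of the comparison were below that range. The labels do not give the deleted stretch of the gene, so the genotype of that library could not be checked and is in doubt. When it was left out, 3513 genes were called higher and 3042 lower in the comparison below. Hepatocyte markers were abundant in all 10 libraries, and Y-linked transcripts were found in each.

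The 6 control livers were not alike. Controls 3, 4, 5 and 6 had high acute phase transcripts and controls 1 and 2 did not. Saa1, serum amyloid A1, stood at 13.2, 37.9, 2075, 2810.5, 9103 and 5152 CPM in controls 1 to 6 in that order, and at 183, 243, 132 and 199.8 CPM in CD-HFD livers 1, 2, 3 and 5. The labels give these 6 livers the same genotype and diet. Values without controls 3 to 6 are given beside results that they move, which for the gene lists below means a count of calls that moved by more than 1.5 times, and that choice was made after the data were seen.

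Of 14862 genes tested, 6884 (46.3%) were called in CD-HFD against control livers, 3657 (24.6%) higher and 3227 (21.7%) lower. Values of the 4 and the 6 livers did not overlap for 2946 of the genes called higher (19.8% of those tested) and for 2140 of those called lower (14.4%). The called genes with a change of 2-fold or more numbered 2904 higher and 945 lower, and with 8-fold or more 815 higher and 94 lower. The direction of small changes depended on the scaling. TMM factors lay between 0.7988 and 0.8391 in the controls and between 1.125 and 1.241 in the CD-HFD livers. Scaled by library size alone, 6870 genes were called higher and 737 lower, while the median change over all genes (log2) went from -0.05 to 0.49. Without controls 3 to 6, 2687 genes were called higher and 1727 lower.

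Among genes whose groups did not overlap, with a mean of 2 CPM or more in the higher group and leaving out predicted genes, the largest rise was that of Gpnmb, a transmembrane glycoprotein of lipid-laden macrophages. Its level was 319, 388, 343 and 453 CPM in the 4 CD-HFD livers and 0 to 0.419 (median 0.149) CPM in the controls, a log2 change of 10.93 ± 0.50 (SE; edgeR adjusted p = 1.3e-20). All 4 CD-HFD livers lay far above the highest control. Mmp12, the macrophage elastase, followed at 263, 296, 297 and 304 CPM against 0 to 0.559 (median 0.268) CPM (9.87 ± 0.39, edgeR adjusted p = 6.2e-23). Ubd, a ubiquitin-like modifier induced by inflammatory cytokines, held between 93.0 and 103 CPM in the CD-HFD livers, against at most 1.96 CPM in the controls. Ly6d, a surface protein of the Ly6 family, rose by 6.98 (log2) and Sult1e1, the oestrogen sulfotransferase, by 6.97.

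Several of the largest rises were of genes with no reads in any control liver, so that only a lower bound can be given, set against 3 counts in the smallest control library. Fbn2, the microfibril protein fibrillin-2, was at least 11.3-fold higher, with 12.5, 7.57, 5.77 and 6.74 CPM in the CD-HFD livers. Cfap44, a protein of cilia, was at least 8.50-fold higher, Lyz1 at least 3.92-fold, Fcrls, a scavenger receptor of the Fc receptor-like family, at least 3.08-fold, and Trim29 at least 3.07-fold. Lyz1 is nearly identical to the abundant macrophage lysozyme Lyz2, so its reads may have been split between the copies. Vmn2r3, a vomeronasal receptor gene, had 13.3, 11.7, 15.2 and 4.01 CPM in the CD-HFD livers and a single read in the 6 controls. H19, an imprinted fetal noncoding RNA, was at 67.3, 5.37, 5.42 and 4.18 CPM, so that CD-HFD liver 1 stood well above the other three, and at most 0.419 CPM in the controls.

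**Figure D1:**
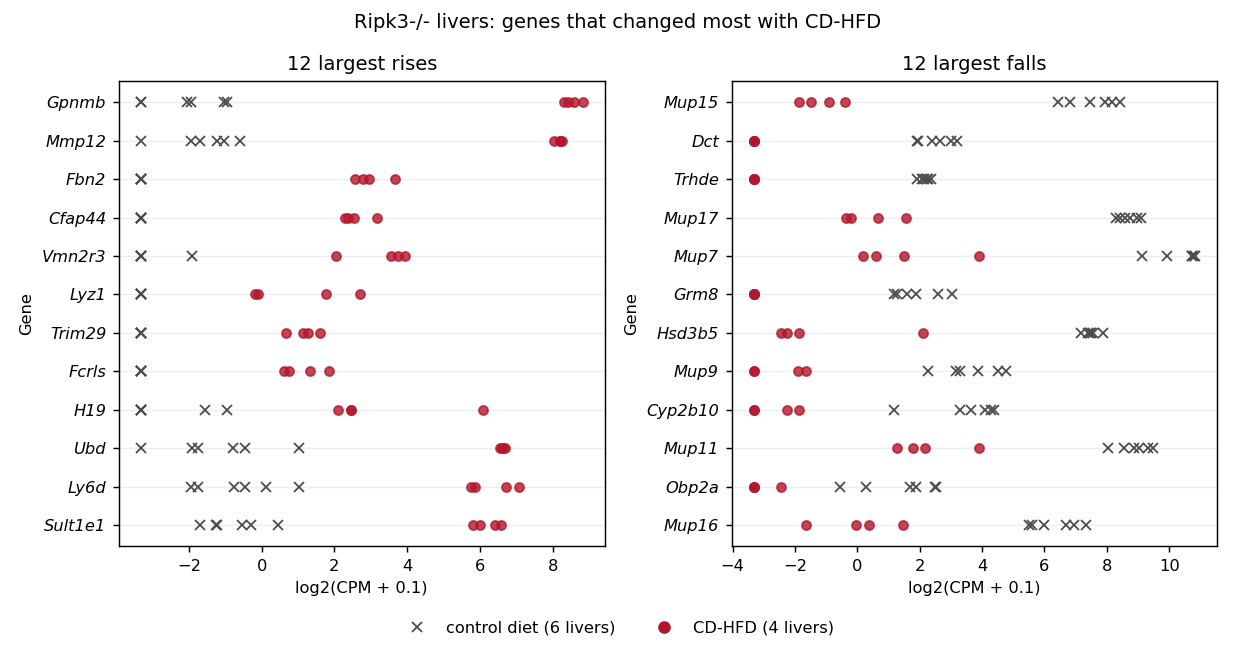
Levels of the 12 genes with the largest rise and the 12 with the largest fall in each of the 10 Ripk3-/- livers. The x axis is log2 of CPM plus 0.1, circles are the 4 CD-HFD livers and crosses the 6 control livers. For each of the 24 genes the circles and crosses do not overlap, which the choice of genes required.

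The largest falls were led by major urinary proteins, pheromone carriers that male mouse liver secretes under pulsatile growth hormone. Mup15 was at 0.666, 0.439, 0.175 and 0.256 CPM in the CD-HFD livers against 85.7 to 342 (median 213) CPM in the controls, a log2 change of -9.18 ± 0.95 (edgeR adjusted p = 2.0e-10). Mup7 was at 14.8, 1.43, 2.71 and 1.02 CPM against 561 to 1830.2 (median 1707) CPM and Mup17 at 2.83, 0.768, 1.49 and 0.683 CPM against 315 to 543 (median 407) CPM. Mup11 fell by 6.38 and Mup16 by 6.30, and Mup9 had 481 reads in the controls and 3 in the CD-HFD livers. Mup genes are near-identical copies in one cluster, so their separate values are uncertain. Hsd3b5, a male-specific steroid dehydrogenase of the liver, was at 4.16, 0.110, 0.175 and 0.0853 CPM against 145 to 233 (median 179) CPM, with CD-HFD liver 1 again apart from the other three.

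Falls outside that group included genes with no reads in any CD-HFD liver. Dct, an enzyme of melanin synthesis, had 3.69 to 9.14 (median 5.68) CPM in the controls and was at least 12-fold lower. Trhde, which degrades thyrotropin-releasing hormone, was at least 8.80-fold lower and Grm8, a metabotropic glutamate receptor, at least 8.36-fold lower. Cyp2b10, the cytochrome P450 known as a target of the constitutive androstane receptor, had 475 reads in the 6 controls and 3 in the 4 CD-HFD livers. Obp2a, an odorant-binding lipocalin, had 107 reads in the controls and 1 in the CD-HFD livers.

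Among the most abundant transcripts the changes were smaller. Of those called higher, Fth1, the ferritin heavy chain, rose by 0.47 to 2373, 2216, 2180.5 and 2098 CPM, H2-D1, an MHC class I molecule, by 1.10 to 1315, 1713, 1900.3 and 1749.5 CPM, and the lysosomal protease Ctsb by 0.82 to 976, 1067, 1126 and 1254 CPM. Of those called lower, Serpina3k, a serine protease inhibitor, was at 2598, 3822, 2126 and 2797 CPM against 9595 to 15708 (median 13614) CPM. Apoa1, the main protein of high-density lipoprotein, fell by 0.59, and by 0.06 with library sizes alone. Alb, albumin, was at 42133, 64173, 56489 and 57724 CPM against 72572 to 103150 (median 87577) CPM (-0.66). It was no longer called without CD-HFD liver 1, at -0.55, or with library sizes alone, at -0.14.

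Most genes of lipid-associated macrophages rose. Of 20 tested genes of these macrophages, the cells that gather around lipid in damaged liver, 15 were called higher and 1 lower (median log2 change 2.02, against -0.05 over all genes). Trem2, the lipid-sensing receptor of these cells, was at 78.7, 80.9, 66.4 and 70.7 CPM against 0 to 1.47 (median 0.978) CPM (6.46 ± 0.32, edgeR adjusted p = 1.4e-19). Lgals3, galectin-3, rose by 5.91 and Itgax, the integrin CD11c, by 5.6. Spp1, osteopontin, was at 1059, 581, 566 and 748 CPM against 32.7 to 84.5 (median 37.6) CPM, all 4 livers above every control. Spp1 is also on the cholangiocyte marker list used below. Other genes, such as Ctss and Tgfb1, likewise stand on more than 1 list, so the rises of different lists are not separate results. Lpl, lipoprotein lipase, was at 477, 431, 417 and 331 CPM against 5.03 to 22.1 (median 12.1) CPM. Apoe, made by hepatocytes as well as macrophages, was the member called lower, at -0.59, and it was not called with library sizes alone, at -0.06. Plin2 (0.10), Fabp5 (0.44), Lipa (0.32) and Cd5l (0.65) were not called.

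All 11 tested markers of recruited macrophages and monocytes were called higher, with a median log2 change of 3.74. Their summed level was between 968 and 1369 CPM in the CD-HFD livers and between 26.8 and 158 CPM in the controls. Ms4a7 rose by 6.51, Cx3cr1, the fractalkine receptor, by 5.13, Lyz2 by 4.36 and Cd68 by 3.75. In bulk tissue, more cells of a type and more RNA per cell cannot be told apart. Resident Kupffer cell markers were called in both directions, 4 of 11 higher and 3 lower (median -0.11), beside 24.6% and 21.7% of all genes. Without controls 3 to 6 they were 5 of 12 higher and 1 lower (median 0.77). Timd4, a phosphatidylserine receptor of resident Kupffer cells, was at 0, 0.329, 0 and 0.341 CPM against 0.628 to 5.73 (median 2.97) CPM (-4.02 ± 0.69, edgeR adjusted p = 6.7e-06), and Marco, a scavenger receptor, fell by 2.07. Clec4f, the Kupffer cell lectin, was not called, with 9.49, 52.4, 45.1 and 54.7 CPM in CD-HFD livers inside the control range of 26.6 to 124 (median 54.2) CPM apart from the low value of CD-HFD liver 1. The complement subunits C1qa, C1qb and C1qc, also on the Kupffer cell list, rose by 2.16, 2.33 and 2.02. Marco was not called without controls 3 to 6, at 0.05, and Timd4 was then at -2.49.

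Of 19 tested lysosome and phagosome genes, 15 were called higher and 2 lower. Ctss, the cathepsin that trims the MHC class II invariant chain, was at 259, 346, 304 and 393 CPM against 4.40 to 39.8 (median 18.6) CPM. Cybb, the catalytic subunit of the phagocyte oxidase, rose by 3.73 and Psap, the precursor of the saposins, by 1.31. Lamp2 (-0.61) and Scarb2 (-0.89), membrane proteins of lysosomes in every cell, were called lower, but neither was with library sizes alone (-0.08 and -0.36) or without controls 3 to 6.

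Chemokine genes rose as well, 18 of 23 tested genes of the chemokine and cytokine list being called higher and 2 lower (median 1.93), with 19 and none with library sizes alone, and 19 and none without controls 3 to 6 (median 3.07). Ccl2, which recruits monocytes, was at 7.33, 6.25, 7.43 and 5.20 CPM against 0 to 3.10 (median 0.501) CPM (2.59 ± 0.48, edgeR adjusted p = 2.1e-05). Its receptor Ccr2 rose by 3.38, Ccl5 by 3.75 and Ccl22, a dendritic cell chemokine, by 4.31. Tnf was at 2.83, 3.40, 1.57 and 2.22 CPM against at most 0.489 CPM. Il1b was not called, at 1.83, 3.40, 2.36 and 2.13 CPM against 0.419 to 3.63 (median 1.76) CPM, and the groups overlapped. Cxcl1, which draws neutrophils, was lower at -1.95, but without controls 3 to 6 it was at 0.43. Of 5 tested neutrophil markers 2 were called, both higher (3 of 7 without controls 3 to 6), and 1 of them, Ngp, lost its call when control 2, 4 or 6 was left out (2.99, 2.93 and 3.02 in place of 3.18).

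T and NK cell genes were higher as well, from low levels. Of 14 tested T and NK cell markers, 11 were called higher and none lower. Cd8a was at 3.66, 6.36, 2.10 and 6.83 CPM against 0 to 0.315 (median 0.0698) CPM and Cd3g at 3.83, 5.48, 1.66 and 6.23 CPM against 0 to 0.389 (median 0.260) CPM, while Cd4 (0.61) was not called. Il7r, the interleukin-7 receptor, rose by 5.02 and Gzmb, granzyme B, by 3.67. Of 9 tested B and plasma cell markers 5 were called higher, among them Cd79b (3.20), but the immunoglobulin genes Ighm (-0.13) and Igkc (0.96) were not, and the summed level of the list was 159.7 to 304 CPM in the CD-HFD livers and 241 to 325 CPM in the controls. Of 8 dendritic cell markers 6 were called higher, led by Ccr7 (4.48). Against controls 1 and 2 alone, 9 T and NK cell, 2 B and plasma cell and 5 dendritic cell markers were called higher.

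All 12 tested genes of MHC class II presentation were called higher, with a median of 2.83. H2-Aa, an MHC class II alpha chain, was at 129, 234, 109 and 175 CPM against 8.59 to 26.4 (median 16.4) CPM, and Ciita, the coactivator that switches these genes on, at 7.66, 12.7, 5.59 and 10.6 CPM against 0.241 to 1.54 (median 1.07) CPM. Cd74, the invariant chain, rose by 3.08 ± 0.27 (edgeR adjusted p = 3.1e-12). CD-HFD livers 2 and 5 were the higher ones for each of these genes. H2-Eb1, an MHC class II beta chain, rose by 3.15. Class II promoters are known for a conserved module that ends in a CCAAT box, so the 150 bases before the H2-Eb1 start in RefSeq (chr17:34305717-34305866 of GRCm38.p6, plus strand) are shown, with each CCAAT or its reverse complement ATTGG in capitals. The reverse box begins 59 bases before the start and the forward one 35 bases before it.
H2-Eb1: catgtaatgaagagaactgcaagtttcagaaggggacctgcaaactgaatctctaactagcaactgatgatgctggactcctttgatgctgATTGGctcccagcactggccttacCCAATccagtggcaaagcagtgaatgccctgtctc
A CCAAT on either strand was present in 6 of the 10 promoter windows found for this list, and in 37.41% of all 32851 windows.

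Interferon-stimulated genes rose without exception among those called, 21 of 24 tested. Oasl2 was at 37.3, 30.7, 53.4 and 47.6 CPM against 2.14 to 4.19 (median 3.20) CPM (3.66 ± 0.31, edgeR adjusted p = 1.6e-12). Mx1, an antiviral GTPase, rose by 3.69 and Oas1a, an oligoadenylate synthetase, by 3.62. Irf1 (0.26), Irgm1 (0.46) and Bst2 (0.22) were not called.

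Among 26 tested components of necroptosis, apoptosis and pyroptosis, 9 were called higher and 5 lower, or 8 and 1 without controls 3 to 6, beside 24.6% and 21.7% of all genes. Scaled by library size alone they were 17 and 1, and the median went from 0.13 to 0.66. Mlkl, the executor that RIPK3 normally activates, was at 14.0, 13.9, 20.5 and 14.5 CPM against 2.53 to 8.10 (median 3.71) CPM (1.85 ± 0.26, edgeR adjusted p = 1.5e-07). Every CD-HFD liver was above every control. Zbp1, a nucleic acid sensor upstream of RIPK3 and itself interferon-induced, rose by 2.26. The inflammasome genes Pycard (3.20), Aim2 (2.95), Casp4 (2.42) and Casp1 (2.31) were called higher. Gsdmd, the pore-forming gasdermin, was not, at 46.3, 49.3, 42.0 and 47.6 CPM against 34.2 to 52.0 (median 40.9) CPM, nor was Casp8, at -0.14 with TMM and 0.40 with library sizes alone, where it was called. Cflar, the caspase-8 inhibitor FLIP, was called lower (-1.16) and stayed so with library sizes alone (-0.62) and without controls 3 to 6 (-0.60). Also called lower were Ripk1 (-1.0), Fas (-0.52) and Ripk3 on its few reads (-2.52), and none of these 3 was called with library sizes alone, where Fas turned to 0.02, or without controls 3 to 6, where Ripk3 turned to 2.27. Ripk3 was also not called without control 5 (-1.28) or without CD-HFD liver 2, 3 or 5.

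Matrix genes rose. Of 25 tested genes of fibrosis and matrix, 23 were called higher and 1 lower, with a median log2 change of 3.32. All 23 had groups that did not overlap, as had 2946 of the 3657 genes called higher among all tested. Col1a1, a chain of type I collagen, was at 200.4, 166, 181 and 196 CPM against 3.14 to 8.38 (median 6.83) CPM (4.92 ± 0.37, edgeR adjusted p = 5.5e-14). Timp1, an inhibitor of matrix metalloproteinases, was at 14.0, 9.65, 8.65 and 10.7 CPM against 0.140 to 0.481 (median 0.202) CPM. Col3a1 rose by 3.94, Mmp2, a gelatinase, by 4.71, Lox, which crosslinks collagen, by 4.42, and the profibrotic factor Tgfb1 by 1.35. Fn1, fibronectin, which hepatocytes secrete in bulk, was the member called lower (-0.90). Fn1 was not called with library sizes alone (-0.37), without CD-HFD liver 1 (-0.81) or without control 6 (-0.70). With controls 3 to 6 left out Fn1 was at -0.03 and 24 of 25 were called higher, none lower.

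Of 13 tested stellate cell and myofibroblast markers, 9 were called higher. Acta2, smooth muscle actin, was at 4.0, 4.17, 7.69 and 3.92 CPM against 0.481 to 2.84 (median 1.83) CPM (1.43). Every CD-HFD liver was above every control, but without controls 3 to 6 Acta2 was not called (1.42). Pdgfra rose by 2.42 and Cygb by 2.32, and Lrat (0.35) and Reln (0.29) were not called. Endothelial markers were called in both directions, 2 of 16 higher and 6 lower, beside 24.6% and 21.7% of all genes. Without controls 3 to 6 they were 1 higher and 3 lower. Cd34, a marker of capillary endothelium and progenitors, rose by 3.73, and Kdr, a VEGF receptor, fell by 1.34. The sinusoidal lectin Clec4g fell by 1.21 and Oit3 by 1.63, the last not called without controls 3 to 6 (-1.12). With library sizes alone 7 endothelial markers were higher and 3 lower.

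All 12 tested cholangiocyte markers were called higher (median 3.40). Krt19, a keratin of bile ducts, was at 20.1, 12.3, 9.88 and 14.1 CPM against 0.241 to 1.68 (median 1.16) CPM and Epcam rose by 4.06. Cftr, the chloride channel of the duct epithelium, had 1 read in the 6 controls and 104 in the 4 CD-HFD livers. Of 17 tested oncofetal and liver tumour genes 15 were called higher and none lower. Afp, alpha-fetoprotein, was at 11, 5.37, 8.22 and 4.95 CPM against 2.05 to 3.61 (median 2.58) CPM, a log2 change of 1.42. Spink1 had 137 reads in the CD-HFD livers and a single one in the controls, and Tspan8 rose by 4.93. Gpc3, glypican-3, was called at 1.83 (edgeR adjusted p = 0.042), but its groups overlapped, its highest level was 1.28 CPM, and it lost the call when CD-HFD liver 1 or 5 or control 1, 3, 5 or 6 was left out (values from 1.44 to 1.86). The list shares Epcam, Sox9 and Cd24a with duct epithelium, whose markers moved at the same time. Their part in the rise was not tested.

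Of 26 tested genes of the cell cycle and mitosis, 21 were called higher and 1 lower, with a median of 2.29. Mki67, the proliferation antigen, was at 22.8, 19.96, 27.7 and 17.6 CPM against 0.481 to 1.54 (median 0.704) CPM (4.67 ± 0.37, edgeR adjusted p = 1.7e-13). Ccnb1, the mitotic cyclin, had 187 reads in the CD-HFD livers and 2 in the controls. Cdk1, its kinase, was at 7.66, 8.11, 7.17 and 6.83 CPM against 0.652 to 2.30 (median 1.18) CPM, and Cdc20, the activator of the anaphase-promoting complex, at 6.33, 7.46, 13.6 and 8.02 CPM against 0.315 to 1.36 (median 0.520) CPM. All 21 genes called higher had groups that did not overlap, as had 2946 of the 3657 called higher among all tested genes. The replication genes Pcna (0.20) and Rrm2 (-0.06) were not called, and Tk1, thymidine kinase, was called lower (-0.87). Tk1 was not called without control 1 (-0.62) or with library sizes alone (-0.34).

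The G2 and mitosis genes are known for promoters with a CHR element (TTTGAA) and nearby CCAAT boxes, so those of Cdk1, Cdc20 and Ccnb2 are shown as examples of genes that rose together. Each line is the 150 bases before the start of the gene in RefSeq, GRCm38.p6, read 5′ to 3′ along the gene, with both motifs and their reverse complements in capitals. Cdk1 lies at chr10:69352913-69353062, Cdc20 at chr4:118437344-118437493 and Ccnb2 at chr9:70421555-70421704, all on the minus strand.
Cdk1: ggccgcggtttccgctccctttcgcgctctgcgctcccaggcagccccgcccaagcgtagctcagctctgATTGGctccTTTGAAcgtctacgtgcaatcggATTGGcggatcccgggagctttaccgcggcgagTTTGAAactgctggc
Cdc20: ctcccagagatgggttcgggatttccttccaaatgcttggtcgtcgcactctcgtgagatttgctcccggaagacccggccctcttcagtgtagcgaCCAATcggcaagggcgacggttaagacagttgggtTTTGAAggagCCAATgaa
Ccnb2: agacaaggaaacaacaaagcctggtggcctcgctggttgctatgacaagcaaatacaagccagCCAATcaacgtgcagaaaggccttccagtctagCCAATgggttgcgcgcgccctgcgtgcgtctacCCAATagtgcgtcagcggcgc
Cdk1 holds TTTGAA 71 and 15 bases before its start and CCAAT in reverse at 80 and 48, Cdc20 holds TTTGAA at 18 with CCAAT at 53 and 8, and Ccnb2 holds CCAAT at 87, 54 and 21. Windows were found for 22 of the 26 genes. TTTGAA on either strand was in 14 of their 24 windows (58.33%) and in 17.89% of all windows, and CCAAT in 20 of 24 (83.33%) against 37.41%. Matches of the 2 motifs may overlap, and a match is a description of the letters only.

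Of 16 tested p53 targets, 6 were called higher, beside 24.6% of all genes, and none lower, beside 21.7%. Those called included Cdkn1a, the cell cycle inhibitor p21, at 17.8, 20.3, 29.0 and 18.4 CPM against 2.37 to 11.6 (median 4.44) CPM. Phlda3 rose by 2.96 and Tnfrsf10b, a death receptor, by 2.98, while Bax (0.40) and Mdm2, at -0.05 with TMM and 0.49 with library sizes alone, were not called. Scaled by library size alone, 13 of the 16 were called higher. Targets of the antioxidant factor NRF2 were called in both directions, 11 of 20 higher and 5 lower, but 11 and 1 with library sizes alone. Slc7a11, the cystine transporter, had 156 reads in the CD-HFD livers and a single one in the controls, and Nqo1 rose by 1.64. Gsta3, an abundant glutathione transferase of hepatocytes, fell by 1.38.

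Lipid synthesis genes fell. Among 20 tested genes of de novo lipogenesis none was called higher and 16 were called lower (median -1.52). Of the 16, 15 had no overlap, as had 2140 of the 3227 genes called lower among all tested. Scd1, stearoyl-CoA desaturase, was at 516, 193, 368 and 506 CPM against 3578 to 9632 (median 5707) CPM (-3.98 ± 0.58, edgeR adjusted p = 3.5e-07). Fasn, fatty acid synthase, was at 162, 122, 115 and 122 CPM against 506 to 885 (median 648) CPM. Thrsp fell by 3.82, Me1, malic enzyme, by 3.58, and the transcription factors Srebf1 and Mlxipl, which drive the pathway, by 1.28 and 1.32. Fads2 (-0.02) and Dgat1, at -0.05 with TMM and 0.48 with library sizes alone, were not called. The list's median was -0.99 with library sizes alone, with 13 genes called lower and 1 higher, and -1.62 without controls 3 to 6, with 14.

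Cholesterol synthesis and uptake genes were also lower, 18 of 22 tested and none higher (median -1.18), or 11 and 1 with library sizes alone (median -0.64). Sqle, squalene epoxidase, was at 57.8, 45.8, 42.1 and 35.9 CPM against 58.1 to 185 (median 124) CPM, so that the CD-HFD livers lay just under controls 1 and 2. Hmgcs1, which makes HMG-CoA, was at 234, 139.6, 152 and 132 CPM against 181 to 285 (median 257) CPM, and the groups overlapped. Idi1, isopentenyl-diphosphate isomerase, was at 12.3, 17.1, 17.5 and 17.7 CPM in the CD-HFD livers, at 15.2 and 20.9 CPM in controls 1 and 2, and between 64.4 and 95.7 CPM in controls 3 to 6. The size of the falls of Sqle and Idi1 differed with the controls used. Without controls 3 to 6, 11 of 22 were called lower with a median of -0.72, and neither Sqle (-0.36) nor Idi1 (-0.12) was. Idi1 also lost its call without CD-HFD liver 1 (-1.70).

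Sterol genes are known for promoters in which SREBP-2 works with the CCAAT-binding factor NF-Y, and the Idi1 upstream stretch is shown as an example from a list in which most genes were called lower, though Idi1 itself was not without controls 3 to 6 (chr13:8885456-8885605 of GRCm38.p6, plus strand, with reverse CCAAT boxes in capitals at 45 and 14 bases before the start).
Idi1: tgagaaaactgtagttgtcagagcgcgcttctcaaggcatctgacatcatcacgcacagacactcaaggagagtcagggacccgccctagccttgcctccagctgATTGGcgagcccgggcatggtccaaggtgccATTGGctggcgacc
Windows were found for 14 of the 22 genes of the list, and every one of the 14 genes had a CCAAT in at least 1 window. By window the share was 14 of 17 (82.35%), beside 37.41% of all windows.

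In bile acid synthesis and transport, 12 of 20 tested genes were called lower and 2 higher, or 12 and 1 without controls 3 to 6. Cyp7a1, the rate-limiting enzyme of the classic pathway, was not called, at 63.1, 115, 97.3 and 112 CPM against 18.9 to 153 (median 60.4) CPM, nor was Cyp8b1 (-0.39). Cyp7b1, of the alternative pathway, fell by 3.20, Slco1a1, a male-biased uptake transporter, by 4.16, and Slc10a1, the main bile salt uptake transporter, by 1.92. Abcb11, the bile salt export pump, fell by 1.55.

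Genes of fatty acid oxidation and PPAR-alpha targets were called at shares near those of all genes, 5 of 22 higher and 5 lower, with a median of -0.21 that turned to 0.32 with library sizes alone, where 10 were higher and 2 lower. Leaving out controls 3 to 6 gave 2 higher and 6 lower, with a median of -0.34. Cpt1a, which admits fatty acids to mitochondria, was not called (0.25). Pdk4, which spares glucose by blocking pyruvate dehydrogenase, was at 18.1, 16.2, 36.6 and 18.2 CPM against 0.838 to 8.38 (median 3.45) CPM. Ucp2, an inner mitochondrial membrane carrier, rose by 2.77 and Fgf21, a stress hepatokine, by 2.54, the last not called without controls 3 to 6 (1.32). Acaa1b (-1.32), of peroxisomal oxidation, was called lower.

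Of 19 tested genes of lipid droplets and lipid uptake, 8 were called higher and 3 lower. Cd36, a fatty acid transporter, was at 188, 185, 269.7 and 228 CPM against 27.8 to 82.7 (median 43.9) CPM (2.20 ± 0.27, edgeR adjusted p = 1.2e-08). Cidec, a droplet-fusing protein, was at 50.9, 52.6, 71.7 and 48.8 CPM against 6.98 to 29.3 (median 16.8) CPM. Plin2, the droplet coat protein of hepatocytes, was not called at 377, 537, 705 and 551 CPM against 285 to 841 (median 509) CPM, and the groups overlapped. Cidea, a relative of Cidec, was too low to test, at most 1.47 CPM. Fabp1, the liver fatty acid-binding protein, fell by 1.49. Cidec was not called without controls 3 to 6 (1.30), where the list held 4 called higher and 3 lower with a median of -0.20 in place of 0.44. Pparg, a driver of fat storage genes, was not called (0.44).

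For lipid export, 15 of 20 tested genes of apolipoproteins and VLDL assembly were called lower and 1 higher, and with library sizes alone 7 were lower. Mttp, the transfer protein that loads apolipoprotein B, was at 100.4, 129, 147 and 129 CPM against 219 to 363 (median 328) CPM (-1.30). Apob itself was not called (-0.69). Apoa4 was the member called higher, at 320.3, 419, 461 and 247 CPM against 56.3 to 127 (median 74.2) CPM (2.13 ± 0.31, edgeR adjusted p = 2.6e-07). Angptl8, an insulin-induced inhibitor of lipoprotein lipase, fell by 1.91. Against controls 1 and 2 alone Mttp was at -0.93 and Angptl8 at -1.54, neither called, and 11 of the list were lower.

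Genes of phosphatidylcholine synthesis were called at shares near the 24.6% higher and 21.7% lower of all genes. Of 18 tested, 5 were called higher and 5 lower, or 5 and 3 without controls 3 to 6. Pemt, which makes phosphatidylcholine by methylating phosphatidylethanolamine and so needs no dietary choline, was at 222, 240.2, 203 and 201 CPM against 238 to 375 (median 319) CPM and was called lower (-0.56), but with library sizes alone it was at -0.03 and was not called. Chka, choline kinase, was not called (0.24). Pcyt2, of the phosphatidylethanolamine branch, fell by 1.08. Pcyt1b (2.72), Lpcat2 (2.69), which remodels phospholipids in leukocytes, and Slc44a2 (2.02), a choline transporter-like protein, were called higher. With library sizes alone 7 of the 18 were higher and none lower.

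In the methionine cycle, 11 of 20 tested genes were called lower and 1 higher, or 8 and none without controls 3 to 6. Gnmt, which disposes of S-adenosylmethionine, was at 370.4, 639.8, 493 and 767 CPM against 1139 to 2274 (median 1838) CPM (-1.66 ± 0.34, edgeR adjusted p = 8.3e-05). Cbs, the first enzyme of transsulfuration, fell by 1.45. Bhmt, which spends betaine made from choline, was not called at 1946, 2145, 2175 and 2111 CPM against 1341 to 2804 (median 2668) CPM, and neither was Mat1a (-0.27). In the urea cycle and amino acid breakdown, 12 of 20 were called lower and none higher, among them Nags (-1.16), whose product switches the cycle on, and Cps1 (-1.16), whose groups overlapped. Cps1 was at -0.13 without controls 3 to 6, and lost its call without CD-HFD liver 1 or 3 or control 3 or 6 (-0.98 to -1.14). With library sizes alone, the methionine list had 4 higher and 6 lower and the urea list 2 higher and 6 lower.

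Male-biased liver genes fell most. Of 29 tested major urinary proteins and other male-biased genes, 28 were called lower and none higher, with a median of -3.63. The median was -3.09 with library sizes alone and -3.88 without controls 3 to 6. Mup3 was at 744, 792, 561 and 804 CPM against 6495 to 11113 (median 9025) CPM (-3.63 ± 0.25, edgeR adjusted p = 6.4e-15). Mup20, the pheromone darcin, was not called (-0.43). Serpina1e, a male-biased alpha-1-antitrypsin, fell by 3.14 and Elovl3, a fatty acid elongase, by 3.75.

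Female-biased liver genes were more often higher, 7 of 14 tested and 2 lower, or 9 and 1 with library sizes alone. Cyp2b9 was at 6.16, 16.3, 23.3 and 22.5 CPM against 0.194 to 1.68 (median 0.726) CPM and Cyp2a4 at 30.5, 12.4, 44.7 and 17.5 CPM against 1.58 to 5.73 (median 2.06) CPM. Another 8 listed genes were too low to test. The list shares Atp6v0d2 with that of lipid-associated macrophages. The Y-linked genes Ddx3y (-0.93) and Eif2s3y (-0.88) were called lower, and with library sizes alone they were at -0.39 and -0.34.

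Of 20 genes of the growth hormone and IGF axis, which sets the male pattern, 10 were called lower and 1 higher, with a median of -0.48 that turned to 0.06 with library sizes alone, where 5 were lower and 4 higher. Leaving out controls 3 to 6 gave 5 lower and 1 higher. Ghr, the growth hormone receptor, fell by 1.20, and Bcl6, which represses female-biased genes, by 1.85, the latter not called without controls 3 to 6 (-1.06). Stat5b (-0.19) and Socs2 (0.21) were not called. Igfbp2 was at 1061, 1853, 1370.0 and 1254 CPM against 444 to 745 (median 546) CPM, the one member called higher, and Igf1 was called lower at -0.48 (edgeR adjusted p = 0.048). Igf1 turned to 0.05 with library sizes alone and lost its call in 7 of the 10 fits that left out 1 of these livers (-0.42 to -0.49).

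Drug-metabolising genes were lower, with 18 of 25 tested cytochromes P450 of families 1 to 3 called lower and 3 higher. Cyp2c29 was at 26.5, 6.80, 12.9 and 18.8 CPM against 544 to 1457 (median 1126) CPM (-6.09 ± 0.62, edgeR adjusted p = 1.3e-10). Cyp3a11 fell by 1.69 and Cyp1a2 by 0.76, and Cyp2e1, the ethanol-inducible form, was not called (-0.35). The members called higher were Cyp2b9, Cyp2a4 and Cyp2a22, the last not called without controls 3 to 6 (1.16). Close relatives in the Cyp2 and Cyp3 clusters can share reads, so their separate values are uncertain. Of 26 sulfotransferases, UGTs and glutathione transferases, 15 were called lower and 1 higher, Sult1e1, or 10 and 4 with library sizes alone. Gstp1 fell by 1.90 and Ugt2b38 by 4.60, but the last was at 1.94 and 1.89 CPM in controls 1 and 2 and at 1.66, 1.10, 0.437 and 0.683 CPM in the CD-HFD livers, and was not called without controls 3 to 6 (-1.06).

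**Figure D2:**
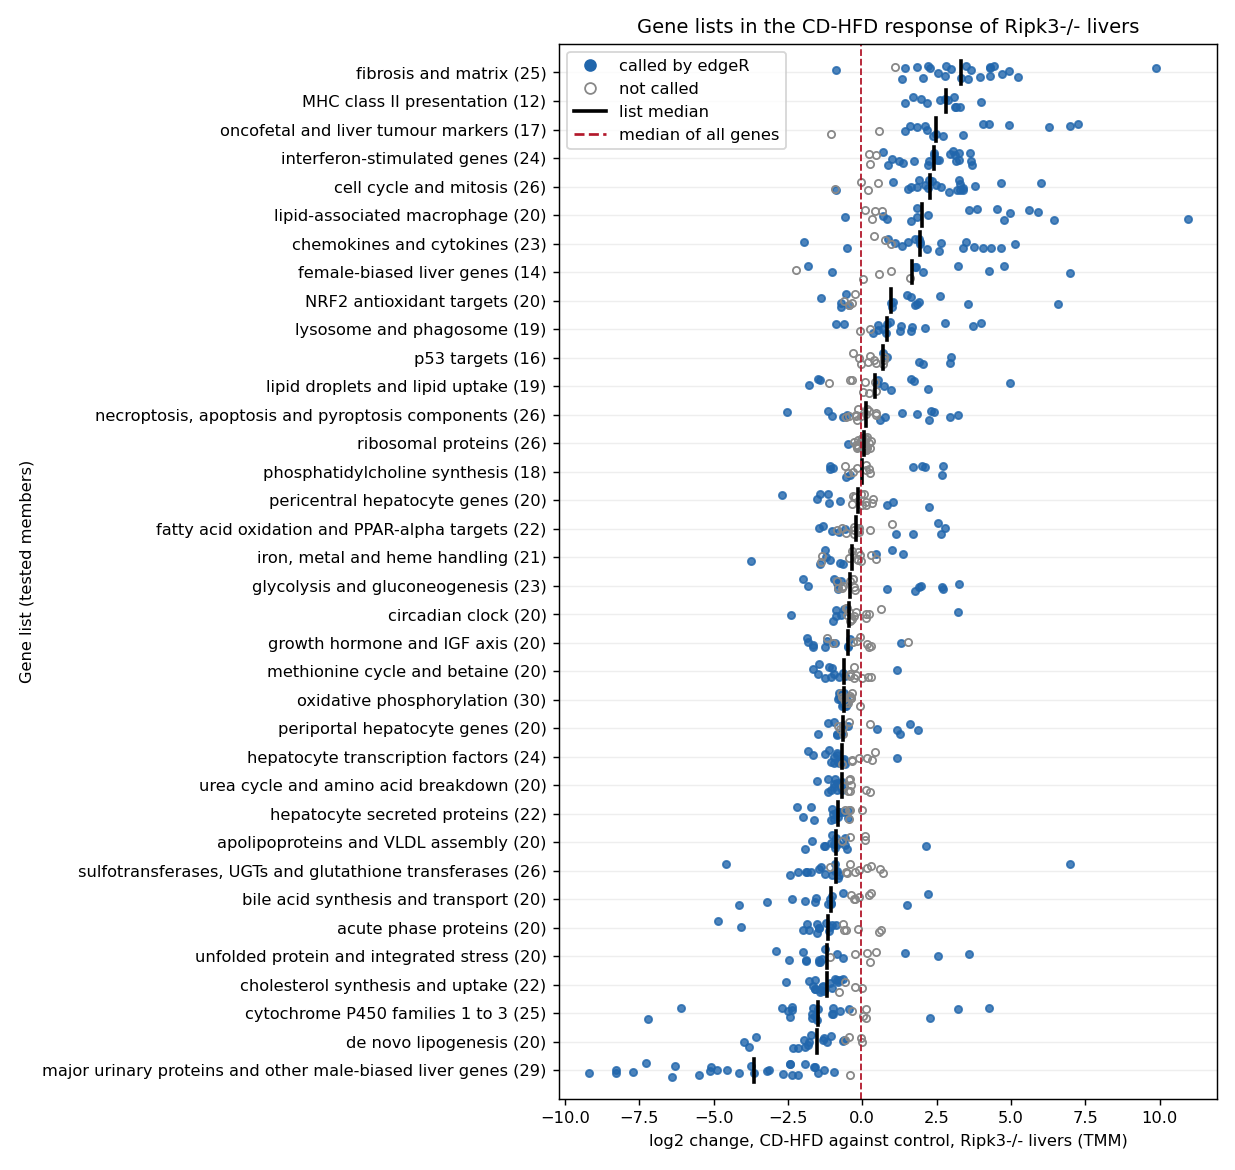
Log2 change of every tested member of each gene list in CD-HFD against control livers of Ripk3-/- mice. Filled points were called by edgeR and open points were not, the bar is the list's median, and the dashed line is the median of all genes at -0.05. Fibrosis, MHC class II and interferon lists lie to the right and male-biased genes furthest to the left, while with library sizes alone every point would move right by about the shift of the median gene to 0.49.

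Hepatocyte secreted proteins and the factors that maintain hepatocytes were modestly lower. Of 22 secreted proteins 17 were called lower and none higher, and of 24 hepatocyte transcription factors 16 were lower and 1 higher. With library sizes alone the counts were 6 lower and 1 higher, and 2 lower and 4 higher. Hnf4a, the central hepatocyte factor, was at 373, 457, 458 and 449 CPM against 648 to 1385 (median 1031) CPM, with controls 1 and 2 the lowest of the controls, and it was at -0.65 without controls 3 to 6. The fibrinogen chains Fga, Fgb and Fgg fell by 2.00, 1.63 and 1.74. They were, without controls 3 to 6, at -0.79, -0.78 and -0.98, none called, and 11 secreted proteins and 7 transcription factors were called lower and 1 secreted protein higher, Hpx (1.02). The summed level of 10 hepatocyte markers was between 87005 and 120600 CPM in the CD-HFD livers and between 156610 and 179400 CPM in the controls. Its part in the falls of hepatocyte genes was not tested.

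Zonation genes were called in both directions, as were 24.6% (higher) and 21.7% (lower) of all genes. Of 20 pericentral genes 3 were called higher and 6 lower, and Glul, glutamine synthetase, the gene nearest the central vein, was not called at 1293, 827, 912 and 994 CPM against 724 to 1058 (median 981) CPM. Of 20 periportal genes 5 were called higher and 9 lower. Cyp2f2 fell by 1.48, while Cdh1, E-cadherin, rose by 1.89. The counts with library sizes alone were 8 higher and 4 lower for the pericentral list and 6 higher and 2 lower for the periportal one, and without controls 3 to 6 the periportal list had 3 higher and 8 lower.

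For energy metabolism, 18 of 30 genes of oxidative phosphorylation were called lower with TMM scaling and none with library sizes alone, where the median was -0.08. Of 26 ribosomal protein genes 1 was called, Rps2, lower at -0.47, which turned to 0.06 with library sizes alone, where 20 were called higher. In glycolysis and gluconeogenesis 7 of 23 were higher and 7 lower, shares near the 24.6% and 21.7% of all genes, and 7 and 2 with library sizes alone. Pkm, the pyruvate kinase of non-hepatocytes, rose by 2.72 and Hk3, a hexokinase of myeloid cells, by 3.24, whereas Pklr, the hepatocyte pyruvate kinase, fell by 1.81. Of 20 clock genes 6 were called lower and 1 higher, with library sizes alone 1 and 4, and without controls 3 to 6 3 and none. Nfil3 fell by 2.39, and Arntl (0.13) and Dbp (-0.35) were not called. Of 21 genes of iron, metal and heme handling 3 were higher and 7 lower, which became 3 and 4 without controls 3 to 6 and 8 and 3 with library sizes alone. Among the lower ones was Slc30a10, a manganese exporter, at 3.50, 2.41, 2.62 and 2.39 CPM against 26.0 to 48.0 (median 34.6) CPM. Hamp, the iron hormone hepcidin, was at 468, 542, 439 and 614 CPM against 436 to 1552 (median 1173) CPM (-1.08, edgeR adjusted p = 0.024). The groups overlapped, the lowest control lying just below every CD-HFD liver.

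The acute phase list depended on which controls were used. Controls 3 to 6 were set apart by their Saa1, so the turn of Saa1 and of genes that move with it follows from that choice and says nothing of its own about the list. Of 20 tested acute phase genes 14 were called lower and none higher (median -1.17), or 9 and 2 with library sizes alone. Without controls 3 to 6, 3 were called lower and 6 higher, and the median was 0.13. Saa1 went from -4.08 to 2.93, and Saa2 from -4.86 to 3.53. On CD-LFD, Saa1 was at 179, 104 and 139.9 CPM, close to the CD-HFD livers. The Saa1 and Saa2 sequences are close enough that their reads may have been shared. Lcn2, an iron-siderophore binding protein, was at 2.53, 5.45, 190.0, 179, 806 and 765 CPM in controls 1 to 6 and at 394, 530.1, 581 and 399.6 CPM in the CD-HFD livers, so that the CD-HFD livers lay above controls 1 to 4 and below controls 5 and 6. The log2 change was 0.55 (edgeR adjusted p = 0.54), and 6.94 without controls 3 to 6, where it was called. Mt1, a metallothionein, was at 86.5, 84.0, 1365, 999.7, 1020.2 and 1304 CPM in the controls and 245, 280.4, 350.4 and 355 CPM in the CD-HFD livers. Mt2, its neighbour, was at 1.55, 1.89, 81.8, 51.7, 53.9 and 48.4 CPM in the controls and 14.8, 14.7, 15.5 and 17.2 CPM in the CD-HFD livers. Neither was called in CD-HFD against all 6 controls (-1.40 and -1.36). With controls 3 to 6 left out they were at 1.88, not called, and 3.21, called.

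Genes of the unfolded protein response and integrated stress were mostly lower, 12 of 20 tested called lower and 3 higher (median -1.17). With library sizes alone 10 were lower and 5 higher. Hspa5, the chaperone BiP, was at 908, 1050.1, 2022, 4848, 1258 and 2189 CPM in controls 1 to 6 and at 641, 476, 611 and 486 CPM in the CD-HFD livers. Control 4 was the highest for Hspa5, Hyou1 and Creld2, at 1089 and 747 CPM for the last 2. With controls 3 to 6 left out, 6 were called lower and 1 higher, and the median stayed below that of all genes, at -0.42. Hspa5 was then at -0.79 and Hyou1, not called, at -0.98. Atf3, an immediate stress factor, was among the 3 called higher, at 33.6, 32.1, 32.4 and 27.6 CPM against 0.419 to 4.24 (median 2.48) CPM (3.58 ± 0.41, edgeR adjusted p = 2.1e-09). Ddit3 was not called (-0.24).

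**Figure D3:**
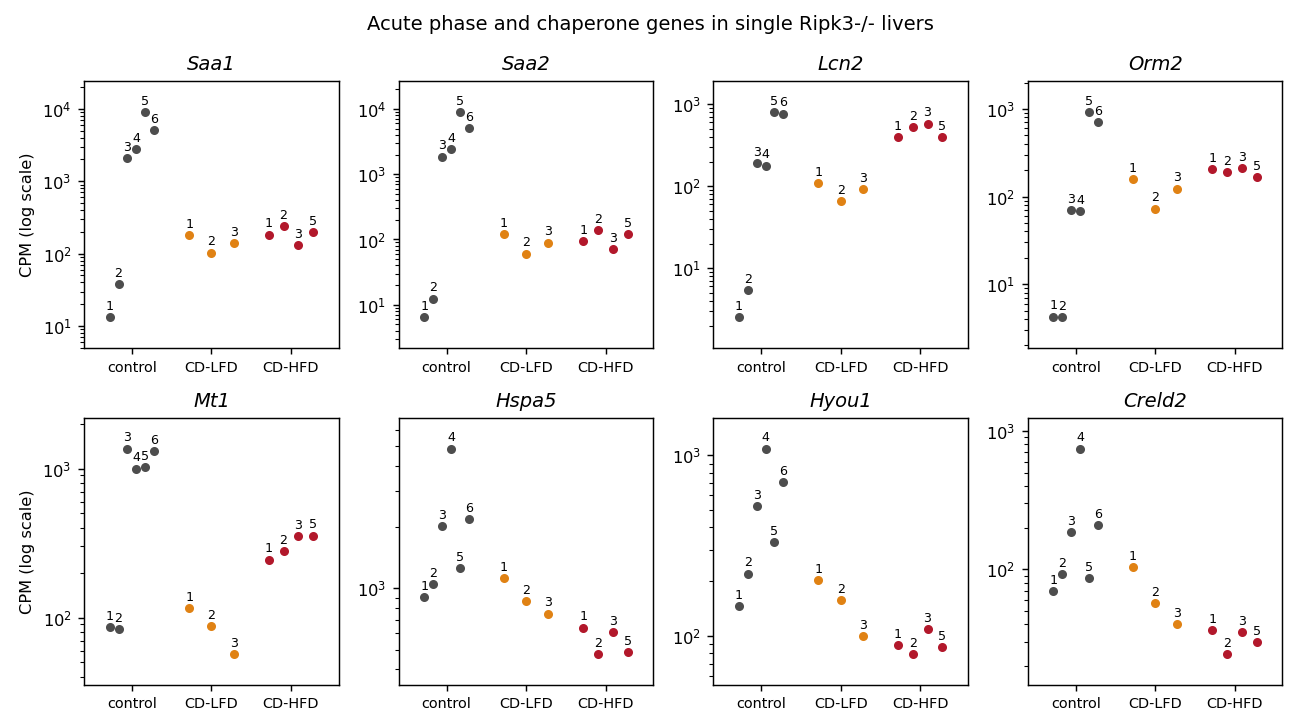
Levels of 8 acute phase and chaperone genes in single Ripk3-/- livers on control diet (6), CD-LFD (3) and CD-HFD (4). The y axis is CPM on a log scale and the numbers are the replicate labels. For Saa1, controls 1 and 2 stand at 13.2 and 37.9 CPM, below every CD-HFD liver, and controls 3 to 6 at 2075 CPM or more, above them.

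The response to CD-HFD was then set against that of WT livers by testing the difference between the 2 responses, which uses the same 10 livers again. The WT controls were not alike either. The log2 ratio of the clock genes Arntl and Dbp ran from -7.88 to 2.69 in them, from -6.24 to -2.12 in WT CD-HFD livers and from -7.40 to -5.68 in Ripk3-/- controls. On the second principal component of log2 CPM, with 13.05% of the variance over the 44 libraries, WT controls 5 and 6 lay at 85.6 and 87.5 and the other 4 between -8.16 and 2.58. Ripk3-/- controls 1 and 2 lay at 37.5 and 30.4 on it, and controls 3 to 6 between -34.6 and -17.5. The Ripk3-/- CD-HFD livers lay between -32.6 and -7.90. Of 14862 genes, 71 (0.478%) were called, 20 (0.135%) with a higher response in Ripk3-/- livers and 51 (0.343%) with a lower one, and 1624 had an unadjusted p under 0.05. The lower ones were led by Saa2, Tmc5, Lcn2, Saa1 and Orm2. Lcn2 changed by 0.55 in Ripk3-/- and by 7.38 in WT livers, a difference of -6.83 ± 1.16 (edgeR adjusted p = 0.0029). Its CD-HFD levels overlapped, 394 to 581 CPM in Ripk3-/- and 304 to 593 CPM in WT livers, while WT controls were at 0.456 to 6.60 CPM. Of the 51 genes, 9 were of the acute phase list and 4 of the unfolded protein list. Without controls 3 to 6, 2 genes were called in all, 0 of them among the 71. In that fit, with 2 controls, 67 of the 71 differences had the same sign, and their median size was 1.09 (log2) in place of 1.87. When controls 1 and 2 were left out instead, 511 genes were called, 70 of them among the 71. Leaving out 1 liver at a time gave from 17, without CD-HFD liver 5, to 169, without control 1, and DESeq2 called 204. With the clock ratio as a covariate 37 were called, 23 of them among the 71.

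The higher responses were led by Lars2, Rfx4, Rnf125, Fam83f and Ppp1r3c among named genes. Lars2, mitochondrial leucyl-tRNA synthetase, rested on CD-HFD liver 1, with 10771, 119.9, 50.4 and 166 CPM in the CD-HFD livers. Without that liver its log2 change against the controls was -1.17. Rfx4, a ciliogenic transcription factor, changed by 2.19 in Ripk3-/- and by -1.18 in WT livers (difference edgeR adjusted p = 0.022). Rnf125, a ubiquitin ligase, changed by -0.45 and -3.15, and Ppp1r3c, a glycogen-targeting phosphatase subunit, by -0.47 and -2.89. Fam83f changed by 2.31 and -0.22, and Pdk4 by 2.66 and 0.25. The Rfx4 change in Ripk3-/- livers was 1.43 without controls 3 to 6 and was not called.

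None of the fibrosis, lipid-associated macrophage, MHC class II, interferon, cell cycle, lipogenesis, cholesterol or male-biased genes had a called difference. Over all genes 0.478% were called, so that none in lists of this size is near that share. For Gpnmb the difference was 1.16 ± 1.02 (edgeR adjusted p = 0.75), for Col1a1 0.24 ± 0.48 (0.92), for Mki67 1.46 ± 0.52 (0.22) and for Scd1 1.03 ± 0.64 (0.61). These errors leave room for differences of 2-fold and more. In simulated data this test recovered 26% of 2-fold and 73% of 4-fold changes. Median log2 changes stood at 3.32 in Ripk3-/- and 3.08 in WT livers for fibrosis, 2.40 and 2.18 for interferon-stimulated genes, 2.29 and 1.81 for the cell cycle, and -3.63 and -3.68 for male-biased genes. They lay further apart for the acute phase (-1.17 and 0.41), unfolded protein (-1.17 and 0.09) and B and plasma cell lists (1.90 and 0.45). Without controls 3 to 6 the Ripk3-/- medians of these 3 lists were 0.13, -0.42 and 0.92.

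**Figure D4:**
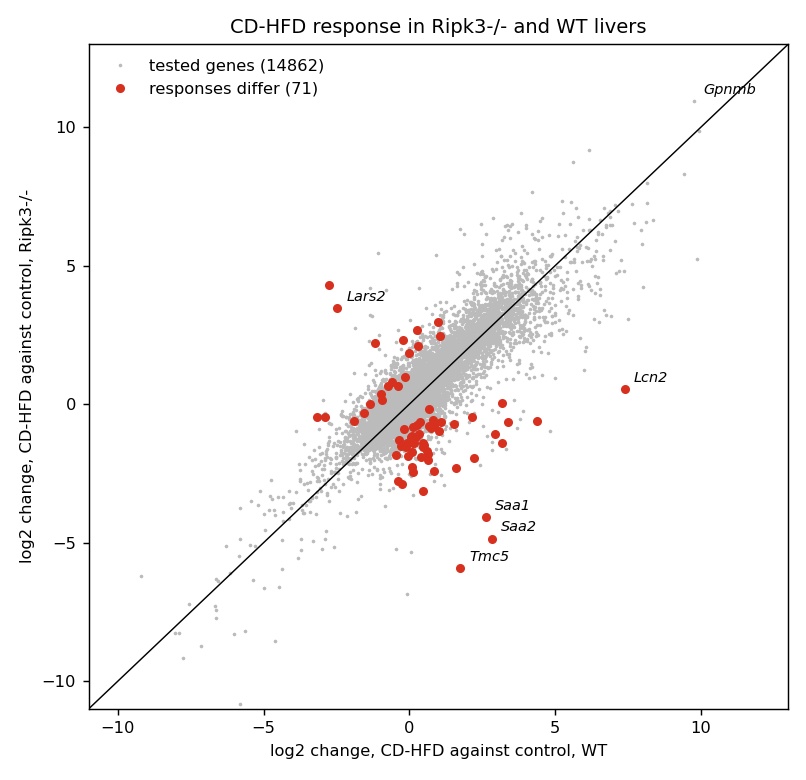
Log2 change with CD-HFD against control in WT (x axis) and Ripk3-/- livers (y axis) for the 14862 tested genes. Red points are the 71 genes whose responses differed by edgeR's test, and the line marks equal change. Saa1, Saa2 and Lcn2 lie far below the line, with Ripk3-/- changes of -4.08, -4.86 and 0.55 that became 2.93, 3.53 and 6.94 without controls 3 to 6.

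The last comparison asks what the higher fat content adds to the lack of choline, by setting the same 4 CD-HFD livers against 3 Ripk3-/- livers on CD-LFD. Of 14862 genes 1312 (8.83%) were called, 854 (5.75%) higher and 458 (3.08%) lower with CD-HFD, and 2821 when these 2 groups were fitted alone. Leaving out 1 liver gave between 510, without CD-LFD liver 2, and 1299. Gpnmb was at 39.2, 26.8 and 50.8 CPM in the 3 CD-LFD livers, between the controls and the CD-HFD livers (3.26 ± 0.40 for CD-HFD against CD-LFD, edgeR adjusted p = 1.5e-06). Trem2 was at 14.2, 11 and 17.5 CPM and Col1a1 at 63.1, 22.3 and 75.5 CPM, also in between. Of the lists, 14 of 20 lipid-associated macrophage genes, 16 of 25 matrix genes and 8 of 26 cell cycle genes were called higher with CD-HFD, and 23 of 29 male-biased and 9 of 20 lipogenesis genes lower. The interferon list had 2 of 24.

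Other genes lay close on both choline-deficient diets, or higher on CD-LFD. Cyp2b10 was at 0.208, 0 and 0.0755 CPM on CD-LFD and 0, 0.110, 0.175 and 0 CPM on CD-HFD. Ly6d was at 105, 14.3 and 85.1 CPM on CD-LFD and 106, 54.4, 136 and 58.2 CPM on CD-HFD (0.37 ± 0.55, edgeR adjusted p = 0.75), and CD-LFD liver 2 was the lowest. Sult1e1 was higher on CD-LFD, at 258, 168 and 295 CPM, than on CD-HFD (-1.67, edgeR adjusted p = 0.038). Hsd3b5 was at 48.9, 91.9 and 40.0 CPM and Mup7 at 324, 426 and 138 CPM on CD-LFD, between control and CD-HFD levels. Scd1 was at 4212, 1648 and 3045 CPM on CD-LFD.

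**Figure D5:**
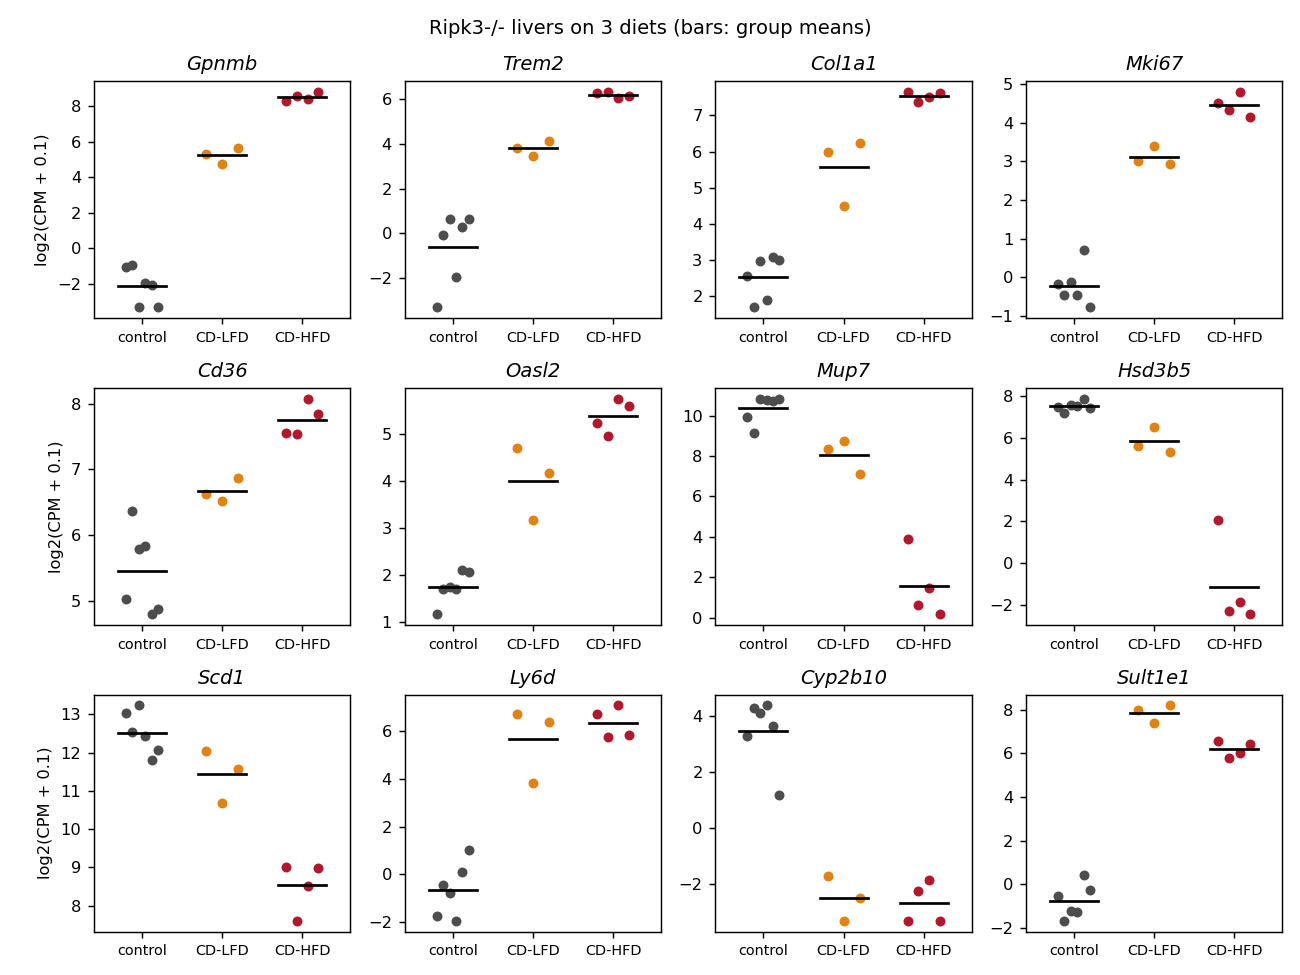
Levels of 12 genes in Ripk3-/- livers on control diet (6), CD-LFD (3) and CD-HFD (4). The y axis is log2 of CPM plus 0.1, points are livers and bars group means. Gpnmb, Trem2, Col1a1 and Mki67 step up and Mup7, Hsd3b5 and Scd1 step down from control to CD-LFD to CD-HFD, whereas the points of Ly6d and Cyp2b10 overlap on the 2 choline-deficient diets and Sult1e1 is highest on CD-LFD.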

How the data were processed

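Liver RNA-seq libraries from directional kits were analysed from the gene counts that the authors deposited, 1 table of raw counts for 44 libraries. FastQC, STAR, HTSeq, edgeR and limma and the mouse build GRCm39 are named, without versions or settings, per the submitters' processing notes. Groups came from the labels. Genes were kept with edgeR 4.0.16 filterByExpr (minimum count 10), scaled with TMM, and tested with quasi-likelihood F tests in R 4.3.3, with 1 mean for each of 9 groups and Benjamini-Hochberg adjustment over 14862 genes. In data simulated for the main comparison, 53% of 2-fold and 84% of 4-fold changes were recovered over 14200 genes. CPM are TMM-scaled, and counting error limits low genes. Genes without a symbol held 0.0838% of counts. Promoter letters come from RefSeq windows on GRCm38.p6, used for sequence only, since the counts were made on GRCm39.

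Named genes are a set list of liver and disease genes, the 12 largest rises and falls with groups apart, the 6 most abundant called genes each way, and in each list up to 4 called genes of largest change and 2 of highest level. Some of these genes are not reported here. The others, Moxd1 and the heat shock genes among them, were picked after their values were seen. The comparison, lists and markers were chosen with earlier results of these data known. Alternatives were DESeq2 1.42.0, other scalings and filters, a robust fit, a clock ratio (Arntl over Dbp) covariate, a replicate block, the compared groups alone, each library left out, and, added after seeing the data, controls 3 to 6 or 1 and 2 left out.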

Additional observations from a re-analysis of the deposited data

Results flagged for a closer look

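Single livers far from the rest of their group were looked for in the CPM of each named gene, in the 4 CD-HFD livers and in the 6 controls. Of 484 such groups of values, 48 (9.92%) had one by Dixon's criterion. In 6 of these the gene had reads in a single liver, which meets the criterion by construction. Of the other 478 groups 42 (8.79%) had one. The criterion is set at about 1 in 20 for independent, normally distributed values, which the CPM of these genes need not be. Some of the genes were also picked after their values were seen, so the share does not measure an excess of odd livers. CD-HFD liver 1 stood apart as high for Casp4 (21.0 CPM), Cidea (0.832 CPM), Fasn (162 CPM), H19 (67.3 CPM), Hsd3b5 (4.16 CPM), Lars2 (10771 CPM), Moxd1 (0.333 CPM), Mup11 (15 CPM), Mup7 (14.8 CPM) and Sox9 (40.1 CPM) and as low for Fn1 (744 CPM), Hnf4a (373 CPM) and Idi1 (12.3 CPM). CD-HFD liver 2 stood apart as high for Apoa1 (12246 CPM) and Nags (55.0 CPM). CD-HFD liver 3 stood apart as high for Acta2 (7.69 CPM), Cidec (71.7 CPM), Mlkl (20.5 CPM) and Pdk4 (36.6 CPM). CD-HFD liver 5 stood apart as high for Fabp4 (31.2 CPM) and Obp2a (0.0853 CPM) and as low for Cxcl1 (12.1 CPM) and Dbp (116 CPM). Control 1 stood apart as high for Cdc20 (1.36 CPM), Igkc (25.5 CPM) and Spink1 (0.194 CPM). Control 2 stood apart as high for Cyp2a22 (10.5 CPM) and Fgf21 (6.07 CPM). Control 3 stood apart as high for Cftr (0.163 CPM), Cpt1a (555 CPM), Pdgfra (8.31 CPM), Slc7a11 (0.163 CPM) and Vmn2r3 (0.163 CPM). Control 4 stood apart as high for Bst2 (192 CPM), Creld2 (747 CPM), Ddit3 (27.9 CPM) and Hspa5 (4848 CPM). Control 5 stood apart as high for Mki67 (1.54 CPM), Mlkl (8.10 CPM), Ripk3 (1.26 CPM), Socs2 (69.3 CPM), Ubd (1.96 CPM) and Zbp1 (16.8 CPM) and as low for Chka (15.8 CPM). Control 6 stood apart as high for Abcb11 (646 CPM), Ccl22 (0.481 CPM) and Tmc5 (28.9 CPM) and as low for Cyp2e1 (4904 CPM).

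The CD-HFD response differed between Ripk3-/- and WT livers, by edgeR's test of the difference in log2 change, as more positive in Ripk3-/- livers for Fam83f (2.53), Lars2 (5.94), Pdk4 (2.41), Ppp1r3c (2.43), Rfx4 (3.37) and Rnf125 (2.70), and as more negative for Creld2 (-2.62), Cxcl1 (-4.17), Dnajb1 (-1.55), Hspa1b (-3.62), Hspa8 (-1.59), Hsph1 (-2.40), Lcn2 (-6.83), Mt1 (-4.58), Orm2 (-5.01), Saa1 (-6.71), Saa2 (-7.67), Stip1 (-1.22) and Tmc5 (-7.65). Without controls 3 to 6 of Ripk3-/-, 0 of the 71 genes called for this difference kept their call, with 2 controls in the fit. Of the 71 differences 67 kept their sign, at a median size of 1.09 in place of 1.87.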

How the results depend on the processing

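The CD-HFD against control count of 6884 genes stayed within 1.5 times of its value under DESeq2 (6804), with size factors from DESeq2 in edgeR (6513), without the count filter (6495), with the compared groups alone (6330), with the clock covariate (6888), in a robust fit (6868) and when 1 liver was left out (5850 to 7001). It fell to 4414, with 1727 lower, without controls 3 to 6, and split into 6870 higher and 737 lower with library sizes alone. Of 199 called genes named, 186 kept their call whichever liver was left out. Without controls 3 to 6, 30 of the 199 lost it, and with library sizes alone 17 did. Genes whose direction turned are not in these 2 counts and are named below.

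The count for the difference from WT moved more. From 71 (20 higher, 51 lower) it became 204 (74 and 130) with DESeq2, 37 (7 and 30) with the clock covariate, 20 (4 and 16) with the compared groups alone, 2 (1 and 1) without controls 3 to 6, and 511 (198 and 313) without controls 1 and 2. Leaving out 1 liver gave 17 to 169 in all, 4 to 53 higher and 13 to 120 lower. For CD-HFD against CD-LFD the 1312 genes (854 and 458) became 2821 (1438 and 1383) with the compared groups alone, 1360 higher and 171 lower with library sizes alone, and 266 lower without the count filter. Leaving out 1 liver gave 510 to 1299 in all, 305 to 967 higher and 205 to 339 lower. The cause was not tested.

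Among named genes called with either setting, direction turned with library sizes alone for Casp8 (0.40), Dgat1 (0.48), Fas (0.016), Igf1 (0.052), Mdm2 (0.49) and Rps2 (0.062). Without controls 3 to 6 it turned for Cxcl1 (0.43), Marco (0.053), Hpx (1.02), Mt2 (3.21), Orm2 (5.54), Ripk3 (2.27), Saa1 (2.93) and Saa2 (3.53), while Mt1, called in neither, went from -1.40 to 1.88. It also turned without CD-HFD liver 1 for Lars2 (-1.17, against 3.30 to 3.87 when another liver was left out).

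With the replicate number as a block, 6378 genes were called in the main comparison, 16 (6 and 10) for the difference from WT and 1159 against CD-LFD, and Orm2 turned to 2.36. Deviations of same-numbered CD-HFD and control livers correlated at 0.185, 0.0264, 0.0684 and 0.148 across genes for numbers 1, 2, 3 and 5. Those of different-numbered livers ran from -0.197 to 0.146. The labels do not say that a number pairs mice, so the numbers were not taken as a pairing. With so few livers the correlations cannot decide whether they are.

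Depth limits genes of few reads, and the 4 and 6 livers limit small changes.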

Other observations

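The heat shock genes Hspa1b, Hspa8, Hsph1, Dnajb1 and Stip1 were picked because each was called for a lower CD-HFD response in Ripk3-/- than in WT livers, so they describe these genes and no list. None of these calls held without controls 3 to 6. Hspa1b, the inducible HSP70, changed by -3.14 in Ripk3-/- and by 0.48 in WT livers (difference edgeR adjusted p = 0.036). It was at 10.9, 20.5, 131, 181, 19.98 and 44 CPM in controls 1 to 6 and at 8.49, 5.92, 9.09 and 7.42 CPM in the CD-HFD livers. Hspa8, the constitutive HSC70, was at 1478, 1596, 2923, 3214, 1582 and 1955 CPM in the controls and 804, 917, 799 and 669.7 CPM in the CD-HFD livers, and Hsph1 at 56.0, 75.2, 240.4, 374, 121 and 264 and 25.5, 29.4, 32.4 and 22.0 CPM. The chaperone cofactors Dnajb1 and Stip1 had differences of -1.55 and -1.22. The Ripk3-/- changes without controls 3 to 6 were -0.99 for Hspa1b, -0.91 for Hspa8 and -1.23 for Hsph1.

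Moxd1, a monooxygenase of the dopamine beta-hydroxylase family, was at 5.05, 0, 37.0, 19.5, 297 and 379.9 CPM in controls 1 to 6. It had 2 reads over the 4 CD-HFD livers and was at 0, 0 and 0 CPM on CD-LFD. Control 2 had none, so the groups overlapped. The high livers were again among controls 3 to 6.

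Of 4 tested adipocyte markers 2 were called higher and 2 lower. Adipoq had no reads in any of the 10 livers, Fabp4 rose by 1.73 and Car3, which hepatocytes also make, fell by 1.65. Of 5 tested erythroid genes 2 were called lower, Hba-a1 (-1.10) and Alas2 (-1.41). Of 3 tested mesothelial markers 2 were called higher, Wt1 (2.71) and Gpm6a (2.46). Leaving out controls 3 to 6 gave 1 mesothelial and 1 adipocyte marker higher and 3 erythroid genes lower. With library sizes alone 1 erythroid and 1 adipocyte gene were called lower, and no pancreatic one. Of the melanocyte list Tyr had no reads in the 10 livers, and Mitf rose by 1.19 while Dct had no reads on CD-HFD. Pancreatic and skeletal muscle lists had 1 tested gene each, and of these the pancreatic one was called, lower at -1.06.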
